A study of Mus musculus with 884 samples.

Results

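The d5 cells were single CBMS1 mouse cells taken from S phase on the fifth day of a differentiation towards neurectoderm. They were chosen by title, as all single cells titled day 5 that had not been sorted from G1, and numbered 62 of the 884 single cells in the series. The assay was single-cell Repli-seq, in which the genome of 1 sorted cell is amplified and sequenced and each stretch of DNA is called replicated or not yet replicated. CBMS1 is a female embryonic stem cell (ESC) line of CBA and MsM strain background. The d5 cells had been turned into epiblast-like cells over 2 days and then grown as floating aggregates in medium with no added factors. The other S-phase cells used here were 50 d3, 52 d4 and 64 d6 cells, d2 cells at the epiblast-like stage (13.5% of the 884 cells) and d7 cells (24.8%), all from the same differentiation scheme. They also included 74 epiblast stem cells (EpiSCs, another female line, of C57BL6 strain, grown in Activin and FGF), and undifferentiated CBMS1 ESCs in 2i/LIF (d0, 18.7%). No label named separate cultures or wells, so the d5 cells counted as 1 sample. No test was run between days. Each share of cells has its 95% interval by the exact Clopper-Pearson method, which holds counting error and no other.

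A mammalian genome is copied in a set order. Domains rich in active genes are copied early in S phase, and domains that lie at the nuclear lamina are copied late. Many domains change their place in this order when a stem cell takes on another identity, and late-to-early and early-to-late switches are known from the differentiation of ESCs into neural precursors. Such switches usually move whole domains rather than single origins of replication.

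Calls were given for 30890 autosomal bins of 80 kb on chromosomes 1 to 19 of the mm9 build. A d5 cell had a median of 29735.5 called bins, with a range of 22233 to 29857, and 3 of the 62 cells had fewer than 29000. The replication score, in percent, is how much of the called genome of a cell had been copied. All d5 cells had been corrected for mappability with 1 merged G1 control, which no S-phase cell of another day shared. Day and control therefore cannot be told apart in any comparison below. That control came from cells titled day 5 whose other labels read day 6. No 2 of the 50 d5 cells with scores of 5 to 95% agreed in more than 92.4% of their bins, so none was a copy of another. The files hold no expression values, so no marker gene could be read, and the day label was set against the replication profile alone.

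The d5 cells covered S phase from end to end. The 11 cells from the gate labelled 25perS had scores of 0.256 to 48.7%, with a median of 7.99%. The 12 cells of the 35perS gate had a median of 35.6% (0.195 to 57.2%) and the 9 cells of the 45perS gate a median of 52.8% (0.0360 to 64.2%). The 8 cells of the 55perS gate ranged from 46.3 to 96.2% with a median of 63.8%. The 10 cells of the 65perS gate had a median of 77.5% (33.5 to 90.1%), and the 12 cells of the 75perS gate had a median of 82.6% (68.1 to 100%). Medians thus followed the gates, while the cells of neighbouring gates overlapped in score. Across the 62 cells, gate and score had a Spearman correlation of 0.866, given as a description. Scores below 5% were found in 7 cells and scores above 95% in 5 cells. The other 50 cells were used to fit the order of bins, and 20 of them had scores of 40 to 70% and are called mid-S cells here.

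For each bin, a logistic curve of the call against the score of the cell gave a midpoint, the score at which the bin was replicated in 50% of d5 cells. A low midpoint means early replication. Of 29754 bins with a midpoint, 11594 (39%) were early, with a midpoint under 40%, 11589 (38.9%) were late, with a midpoint above 60%, and 6571 (22.1%) lay between. The median midpoint was 50.0%, and the near symmetry follows from the score being the share of the same bins that are replicated. Sorted by midpoint, the bins of the d5 cells filled in from early to late as the score went up. Most cells had few replicated bins in the late part of the order before the early part was complete.

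**Figure D1:**
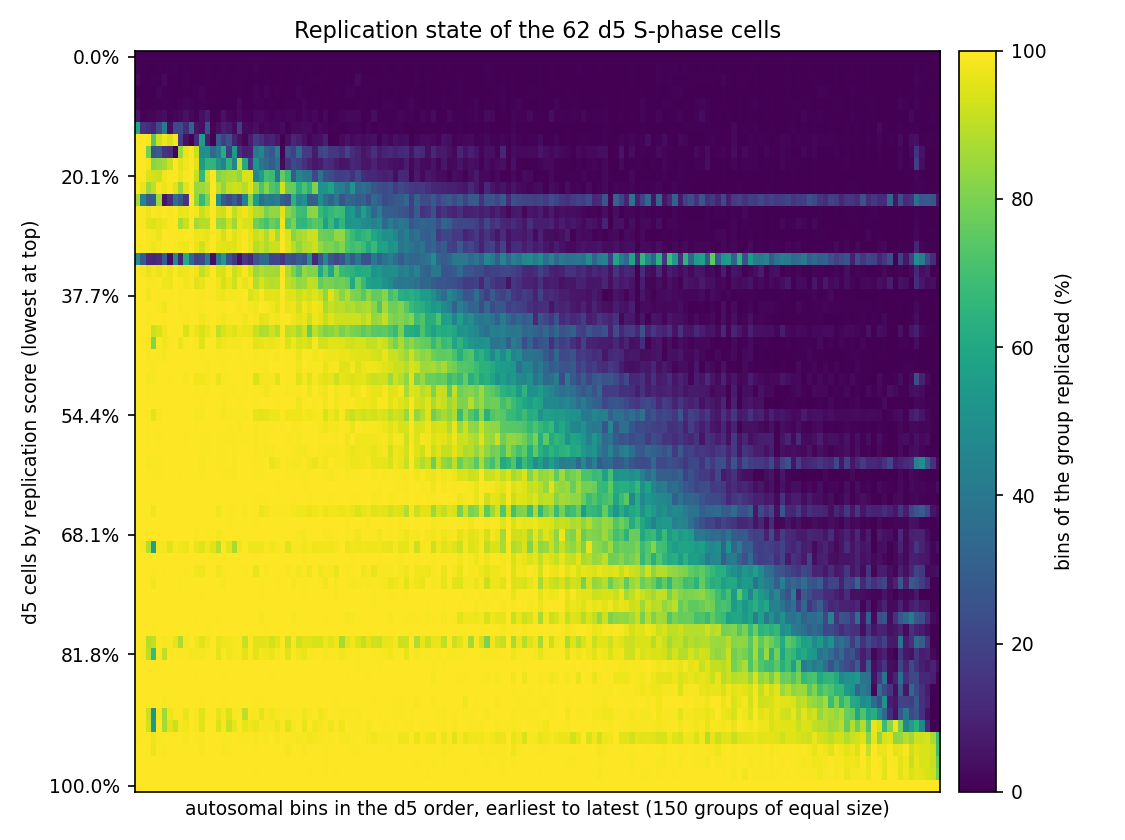
Share of replicated bins (colour, 0 to 100%) in 150 equal groups of autosomal bins, ordered along the horizontal axis from the earliest to the latest midpoint at d5. Each row is 1 of the 62 d5 cells, sorted by score (0.0% at the top, 100% at the bottom); the boundary moves to the right down the page, and 2 rows, at 27.1% and 33.5%, do not follow it.

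The 6 earliest 800 kb windows were copied in nearly every d5 cell. They were ranked by the share of all 62 cells in which their bins were replicated. The first was on chromosome 4 from 132000001 to 132800000, with a mean share of 88.9%. It was followed by chromosome 1 from 135200001 to 136000000 (88.4%), chromosome 4 from 129600001 to 130400000 (88.1%), chromosome 2 from 91200001 to 92000000 (87.9%), chromosome 16 from 32000001 to 32800000 (87.7%) and chromosome 1 from 136800001 to 137600000 (87.5%). All 6 had midpoints of 1.5 to 6.90% at d5, and all 20 mid-S cells had replicated each of them. In 4 of the 6, no d5 cell with a score of 5% or more and a profile that followed the order had 50% or less of its called bins replicated there. At d0 the same windows had midpoints of 0.00 to 11.7%, so they were early in ESCs too.

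The latest windows were mostly unreplicated until the last cells. The latest was a stretch of 2400 kb on chromosome 14 from 42400001 to 44800000, with a mean share of 6.02% over all 62 d5 cells. No d5 mid-S cell of 19 with calls there had copied it (up to 17.6%). At d0, by contrast, 26 of 58 mid-S cells had copied it (44.8%, 31.7 to 58.5%). Its midpoint was 100% at d5, the highest value the fit allows, against 55.8% at d0. Midpoints on the other days were 73.7% at d2, 16.5% at d3, 74.2% at d4, 79.8% at d6 and 94.5% at d7, and 72.7% in EpiSCs, so d3, with the fewest fitted cells, stood apart. The others of the 6 were chromosome 14 from 4000001 to 4800000 (6.49%), chromosome 5 from 10400001 to 11200000 (7.33%), chromosome 15 from 17600001 to 18400000 (7.72%), chromosome 14 from 7200001 to 8000000 (7.75%) and chromosome 3 from 71200001 to 72000000 (8.50%). These were late at d0 as well, with midpoints of 87.2 to 100%. The 2 chromosome 14 windows near the start of the chromosome had calls in only 15 of the 20 mid-S cells.

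Chromosomes differed in when they were copied. Chromosome 11 was the earliest at d5, with a median midpoint of 30.8% and 58.8% of its bins early. Chromosome 3 was the latest, with a median of 61.5% and 51.5% of its bins late. In the 20 mid-S cells, 61 to 81.5% of chromosome 11 was replicated, with a median of 73.2%, and 27.6 to 57.7% of chromosome 3, with a median of 42.9%. The 2 chromosomes did not overlap in these cells. The ranking was also that of d0, where their medians were 29.5% and 62%.

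Cells at the edges of S phase were set against the d5 order. Of the 7 cells with scores below 5%, the cell 7 of the 25perS gate, at 2.75%, had 800 replicated bins with a midpoint, and 722 of them (90.25%) belonged to the earliest 25% of the order, with midpoints up to 28.0%. Cell 10 of the same gate, at 1.07%, had 48% of its 304 there. In the 4 cells with scores of 0.195 to 0.437% the share was 33 to 36.6%, little above the 25% of bins that this part of the order holds. One of the 7, cell 3 of the 45perS gate, had a score of 0.0360% and the fewest called bins, 22233. Apart from cell 7 of the 25perS gate, the scores of these cells lay within those of the G1 cells titled day 5, 0.00 to 1.27%. By score they could not be told from G1 cells. At the other edge, the unreplicated bins of cells at 98.9, 99.2 and 99.4% lay in the last 25% of the order, with midpoints from 73.5%, in 78.4%, 87.3% and 89.3% of cases. The cell at 96.2% had 56.3% of its unreplicated bins there. These 12 cells had no part in the fit of the order.

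Domain sizes changed along S phase. A domain in a cell was taken as a run of neighbouring bins with the same call. In the 3 cells with scores of 5 to 20%, a cell had a median of 659 replicated runs, and the median length of a run was 320 kb. The number of runs was largest around the middle, with medians of 723.5 in the 12 cells at 20 to 40% and 732 in the 13 cells at 40 to 60%, and was 484 in the 13 cells at 60 to 80% and 279 in the 9 cells at 80 to 95%. Median run lengths over the same score classes were 560, 960, 1800 and 3840 kb. Replicated runs therefore grew in length throughout, while their number went down only after the middle of S phase. The unreplicated runs changed less, with median lengths of 1440 kb at 5 to 20%, 1120 kb at 20 to 40%, 960 kb at 40 to 60% and 880 kb in each of the last 2 classes.

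**Figure D2:**
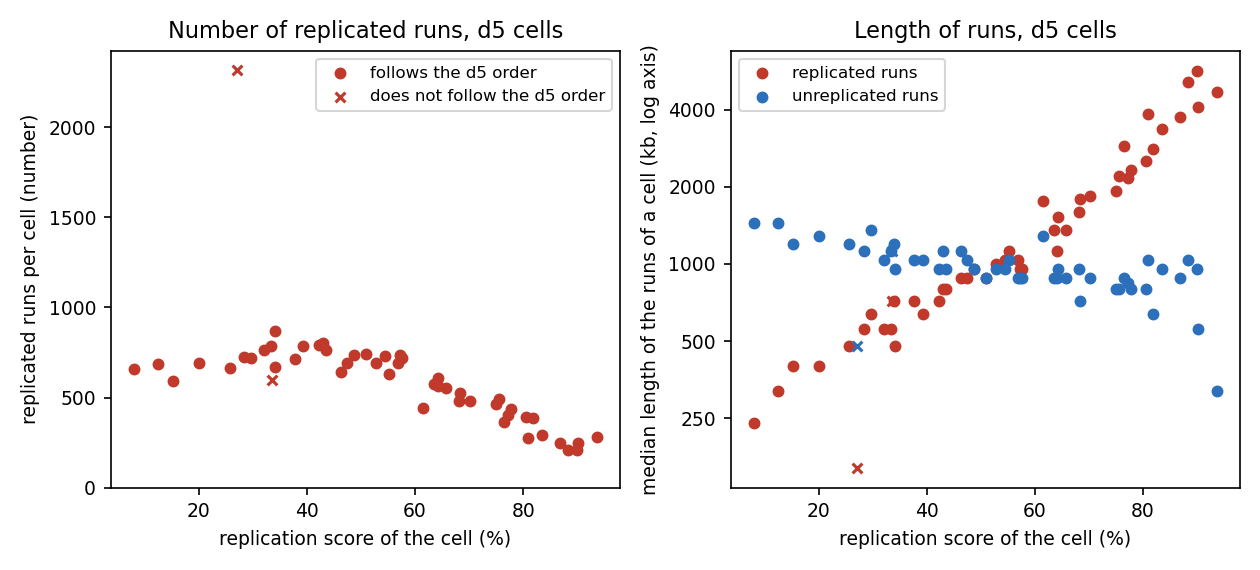
Left, number of replicated runs in each d5 cell with a score of 5 to 95% against its score; right, median length in kb (log axis) of the replicated runs (red) and of the unreplicated runs (blue) of each cell. Replicated runs lengthened with the score while their number went down past 60%; crosses mark the 2 cells that do not follow the d5 order, one of them with 2318 runs.

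Mid-S cells of d5 had a median of 690 replicated runs (442 to 801), against 682 (458 to 1474) at d0. The median run length of a cell was 1020 kb ± 326 (SD over 20 cells) at d5 and 1120 kb ± 363 (SD over 59 cells) at d0, a difference smaller than the spread between cells. Set against d7, the d5 cells had more and shorter runs, 690 against 558 (at most 1124) and 1020 kb against 1320 kb ± 371, and these ranges overlapped too. Unreplicated runs had a median length of 960 kb ± 118.9 in d5 mid-S cells, against 1040 kb ± 253 at d7 and 880 kb ± 163.2 at d0. The scores within the mid-S range were not matched between days.

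The d5 order itself, rather than single cells, gave 702 early domains, runs of bins with midpoints under 50%, and 724 late ones. Their median lengths were 960 and 880 kb, and 24.8% of the early and 25.8% of the late domains were longer than 2000 kb. The longest early domain, 20640 kb, lay on chromosome 4 from 122400001 to 143040000. It contained the first and the third of the earliest windows. The longest late domain, 22160 kb, lay on chromosome 16 from 65120001 to 87280000. At d0 there were 633 early and 624 late domains, with a median length of 1120 kb for both. The d5 profile rests on 50 fitted cells and that of d0 on more, which can change how often a profile crosses 50%.

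Cells differed in how closely they kept to this order. The span of a bin is the score range over which its fitted share went from 25 to 75% of cells, and narrow spans mean that cells copy the bin at nearly the same score. The median span at d5 was 13.3 points, with a middle 50% of 8.95 to 18 points. Bins of the middle of S phase had a wider median span, 14.7 points, than early and late bins, both 12.1 points. Against these, the spans at d0 were 13.3 points in the middle, 13.3 in early and 14.7 in late bins. The fit allows only set span values, of which 12.1, 13.3 and 14.7 points are neighbours, so these medians differ by few steps of the fit.

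The narrowest windows switched almost as a step. On chromosome 11 from 17600001 to 18400000 the mean span was 3.40 points at a midpoint of 69.2%. The narrowest span that the fit allows is 3.30 points, so this value lies near its floor. Among the 48 fitted d5 cells that followed the order, the lowest-scoring cell that had copied it stood at 68.4% and the highest-scoring cell that had not stood at 70.1%. Chromosome 18 from 64800001 to 65600000 (4.83 points, midpoint 40.2%) and chromosome 19 from 20800001 to 21600000 (4.97 points, midpoint 65.1%) were similar. For the first of these the 2 scores were 46.3% and 43.5%, so that no cell was out of place, and for the second 64.2% and 65.7%. The fourth, on chromosome 8 from 24000001 to 24800000 (5.39 points, midpoint 31.8%), was copied from a score of 32.1% on. One cell at 80.9% still lacked it.

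The widest windows were those in which d5 cells disagreed most. Chromosome 13 from 61600001 to 62400000 had a mean span of 40.0 points. It was copied in 5 of 20 mid-S cells (25%, 8.66 to 49.1%), in a cell with a score as low as 7.99%, and was still uncopied at 83.4%. Its midpoint was 68.9% at d5, 88.3% at d7 and 15.2% at d0. Chromosome 18 from 55200001 to 56000000 (38.2 points) went the other way, with midpoints of 42.3% at d5, 27.9% at d7 and 79.5% at d0. The other 2 were chromosome 12 from 90400001 to 91200000 (37.6 points) and chromosome 9 from 27200001 to 28000000 (36.7 points). In both, the midpoint at d5, 65.3 and 64.9%, lay between those of d7 (60.5 and 51.6%) and d0 (93.7 and 70.0%).

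Each cell was also scored by how well the other d5 cells ranked its bins. The order value is the area under the curve with which the share of the other cells separates the replicated from the unreplicated bins of a cell, with 1 for a perfect order and 0.5 for none. The 50 fitted cells had a median of 0.954 and a range of 0.463 to 0.976. The highest value belonged to cell 1 of the 55perS gate. Among cells with scores of 20 to 80%, 2 lay below 0.8. Cell 1 of the 35perS gate had a value of 0.637 with 27112 called bins, and cell 5 of the 65perS gate had 0.463 with 25405 called bins and a score of 33.5%. Both had fewer called bins than any other of the 50 cells. The other 36 cells in this score range had values of 0.901 to 0.976. The 2 cells were kept in the fits. Without them, the counts of early and late bins and of bins that differed from d0, d7, d4 and d6 moved by less than 1.5 times.

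Pairs of d5 cells with scores at most 5 points apart gave another measure of spread. Over all such pairs, a median of 84.8% of bins had the same call in both cells, with a range of 50.2 to 92.4%. The 9 pairs that held 1 of the 2 cells with an order value under 0.8 had a median of 52.03%. In the other pairs the share was at least 77.4%. Leaving out the 2 cells gave a median of 85.3%.

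The d5 profile was then compared with the days around it and with both ends of the differentiation. Across bins, the d5 midpoints correlated with those of d4 at r = 0.946, d7 at 0.940, d6 at 0.936, EpiSC at 0.925, d0 at 0.901, d2 at 0.9002 and d3 at 0.848, over 29546 to 29754 bins. Bins are not independent, groups of fewer cells give noisier midpoints, and d3 rested on 39 fitted cells. A bin was taken as different when its midpoints lay 20 points or more apart, with midpoints below 10% or above 90% held at those values. By this rule 1228 of 29687 bins (4.14%) were earlier at d5 than at d0 and 1207 (4.07%) were later. Against d7, 621 of 29694 bins (2.09%) were earlier at d5 and 458 (1.54%) later. The neighbouring days differed from d5 in 347 bins (1.17%) that were earlier at d5 and 531 (1.78%) later against d4, and in 601 (2.02%) earlier and 715 (2.4%) later against d6. The balance of directions depended on the measure. Counted instead as a difference of 0.3 in the share of mid-S cells, 1307 bins were earlier and 1827 later at d5 than at d0, and 879 earlier and 1388 later than at d7. Against d4 these counts were 1118 and 691, and against d6 1139 and 1120.

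Bins earlier at d5 than at d0 had mean midpoints of 36.2% at d5 and 63.6% at d0, and those later at d5 had 64.7% at d5 and 32.3% at d0. Runs of at least 5 such bins formed 84 earlier and 75 later regions, which held 715 and 704 of the bins and had a median length of 640 kb in both directions. The longest was 2000 kb among the earlier and 3040 kb among the later regions. Chromosomes 12 and 13 had the highest shares of earlier bins, 8.47 and 7.41%, and chromosome 13 also had the highest share of later bins, 7.54%. Chromosome 16 had the lowest share of earlier bins (1.77%) and chromosome 11 the lowest share of later ones (1.48%).

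The region with the largest gain of early replication against d0 was on chromosome 3 from 148400001 to 149280000. Its mean midpoint was 29.3% at d5 and 77.5% at d0. In mid-S cells it was copied in 18 of 20 at d5 (90%, 68.3 to 98.8%) and 5 of 58 at d0 (8.62%, 2.86 to 18.98%). It was earlier at d5 than on the days that followed, with midpoints of 52% at d6 and 50.2% at d7, and it was also early in EpiSCs, at 32.8%. Chromosome 1 from 18880001 to 19440000 was copied in 13 of 20 mid-S cells at d5 and 3 of 59 at d0, with midpoints of 48.9% and 93.4%. This region was late in EpiSCs (91.3%) and at 66.1% at d7. On chromosome 9 from 90960001 to 91680000 the midpoint was 41.2% at d5 and 88.2% at d0, and 14 of 20 mid-S cells at d5 had copied it, against 3 of 59 at d0.

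The other 3 named gains were shared with later days to different degrees. Chromosome 15 from 90720001 to 91120000 had midpoints of 30.4% at d5, 71.8% at d0 and 27.4% at d7. Chromosome 5 from 98320001 to 99040000, at 42.6% at d5 and 81.2% at d0, was copied in 17 of 20 mid-S cells at d5, in 15 of 18 at d4 and in 6 of 21 at d6. Chromosome 13 from 60160001 to 61040000 stood at 25.9% at d5 and 63.3% at d0, and was copied in 18 of 20 mid-S cells at d5 and 13 of 59 at d0.

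The 6 largest losses of early replication spanned more of S phase than the 6 largest gains. On chromosome 13 from 65040001 to 67200000 the midpoint was 86.8% at d5 and 4.22% at d0. Only 2 of 20 mid-S cells at d5 had copied these 2160 kb (10%, 1.23 to 31.7%), against 57 of 59 at d0 (96.6%, 88.3 to 99.6%). At d4, 9 of 18 mid-S cells still had. Chromosome 2 from 176800001 to 178000000 (85.8% at d5, 10.2% at d0) was copied in 3 of 20 mid-S cells at d5 and 57 of 59 at d0. Chromosome 4 from 146480001 to 147280000 (68.9% at d5, 1.30% at d0) was copied in 7 of 20 and 58 of 59. At d4 these 2 regions were copied in 10 and 13 of 18 mid-S cells.

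Chromosome 7 from 48320001 to 50720000 had midpoints of 78.4% at d5 and 25.3% at d0. All 59 d0 mid-S cells had copied it, whereas 4 of 20 had at d5 (20%, 5.73 to 43.7%). Chromosome 8 from 43760001 to 44960000 stood at 86.1% at d5 and 36.5% at d0, with 4 of 20 and 57 of 59 cells. These 2 regions were already late at d4, where 2 of 18 mid-S cells had copied each. Chromosome 13 from 61360001 to 62800000 had midpoints of 68.4% at d5 and 18.8% at d0. Of its mid-S cells, 5 of 20 at d5 and 58 of 59 at d0 were replicated there. Some of the d5 mid-S cells with these regions copied were placed closer to d0 than to d7, as described further on. For the first 3 losses they were 2 of the 2, 2 of the 3 and 4 of the 7 cells. For the 3 regions of this paragraph they were 4 of the 4, 3 of the 4 and 4 of the 5. They were placed by the bins that change from d0 to d7, which overlap these regions. The counts therefore describe the cells and test nothing.

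**Figure D3:**
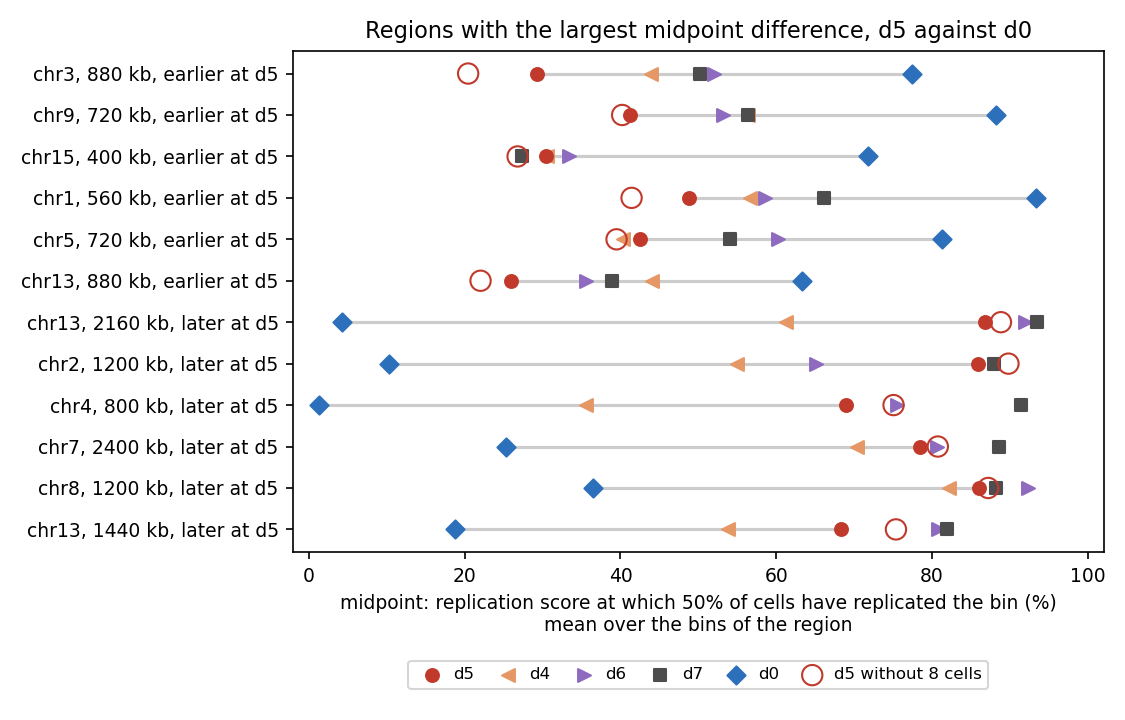
Mean midpoint (replication score in %, low is early) of the 6 regions with the largest difference from d0 in each direction, at d5 (red), d4, d6, d7 and d0 (blue). Open red circles give d5 without the 8 cells placed below midway; a grey line joins d5 and d0, with d5 on the left (earlier) in the upper 6 regions and on the right (later) in the lower 6.

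Cells of d0 came partly from a previous series of the submitters. Against the fitted previous-series d0 cells alone, the 6 named gains measured -49.2 to -38.2 points (d5 minus d0) and the 6 named losses 49.2 to 83.1 points. With the 31 present-series d0 cells alone they measured -46.9 to -32.7 and 51.9 to 77.2 points. All 12 therefore held their direction and passed 20 points with either set. The regions were chosen on all of these cells.

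Against d7, 3 of the 4 named regions earlier at d5 had midpoints close to those of ESCs. Chromosome 15 from 65280001 to 66080000 had midpoints of 40.8% at d5, 76.95% at d7 and 42.1% at d0. It was copied in 16 of 20 mid-S cells at d5, in 9.90% of those at d7 and in 5 of 21 at d6. Chromosome 9 from 3840001 to 4480000 (35.4% at d5, 68.8% at d7) and chromosome 17 from 17200001 to 17840000 (27.3% at d5, 60% at d7) had d0 midpoints of 36.8 and 21.5%. The fourth region, chromosome 6 from 42000001 to 42800000, was unlike the others, being early at d5 (38.6%) and late at d7 (73.3%) and at d0 (74.3%).

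The regions later at d5 than at d7 had not yet gained early replication. Chromosome 13 from 78400001 to 79520000 was copied in 0 of 20 mid-S cells at d5, which allows a share of up to 16.8%, and in 81.2% at d7. At d6 it was copied in 13 of 21. Its midpoints were 71.5% at d5, 46.6% at d6, 42.3% at d7 and 79.6% at d0. Chromosome 16 from 77040001 to 77760000 (84.7% at d5, 52.6% at d7) was copied in 1 of 20 mid-S cells at d5 and 57.4% at d7. Chromosome 5 from 101360001 to 101840000 (55.2% at d5, 24.6% at d7) and chromosome 14 from 104080001 to 104480000 (59.7% at d5, 29% at d7) were copied in 8 and 6 of 20 d5 cells, against 89.1 and 81.2% of d7 cells. At d6 the midpoints of these 2 regions, 28.1 and 25.5%, were already near those of d7.

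Some bins had a d5 midpoint outside both ends of the differentiation, a set looked for after the chromosome 6 region had been seen. Earlier at d5 than at both d0 and d7 by 20 points or more were 0.435% of 29680 bins, and later than both were 36 bins (0.121%). Runs of at least 5 such bins formed 4 earlier regions and 1 later region. The chromosome 6 region was the clearest. It was copied in 7 of 59 mid-S cells of d0, 11 of 35 of d2, 7 of 13 of d3, 7 of 18 of d4, 17 of 20 of d5 (85%, 62.1 to 96.8%), 4 of 21 of d6 and 13 of 100 of d7, and in 6 of 26 EpiSCs. On chromosome 10 from 26240001 to 26640000 the share was 28.8% for d0 cells, 48.6% for d2, 69.2% for d3, 61.1% for d4, 75% for d5, 33.3% for d6 and 20.8% for d7, and 84.6% in EpiSCs. A part of the chromosome 3 gain, from 148480001 to 149040000, was copied in 18 of 20 mid-S cells at d5, against 13 of 21 at d6, 64 of 98 at d7 and 5 of 58 at d0. The share was also high before d5 and in EpiSCs, with 14 of 35 at d2, 12 of 13 at d3, 14 of 18 at d4 and 24 of 26 EpiSCs.

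The fourth, chromosome 9 from 43200001 to 43600000, was early on every day, so that mid-S cells did not separate the days, with 95% of d5 cells and 91.1% of d7 and 91.5% of d0 cells. The region later at d5 than at both ends was on chromosome 11 from 12320001 to 12720000. It was copied in 47 of 59 mid-S cells of d0, 12 of 35 of d2, 2 of 13 of d3, 3 of 18 of d4, 3 of 20 of d5 and 10 of 21 of d6, and in 64.4% of those of d7. The 5 regions were chosen for their d5 midpoints in these same cells, so the shares describe them and test nothing.

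**Figure D4:**
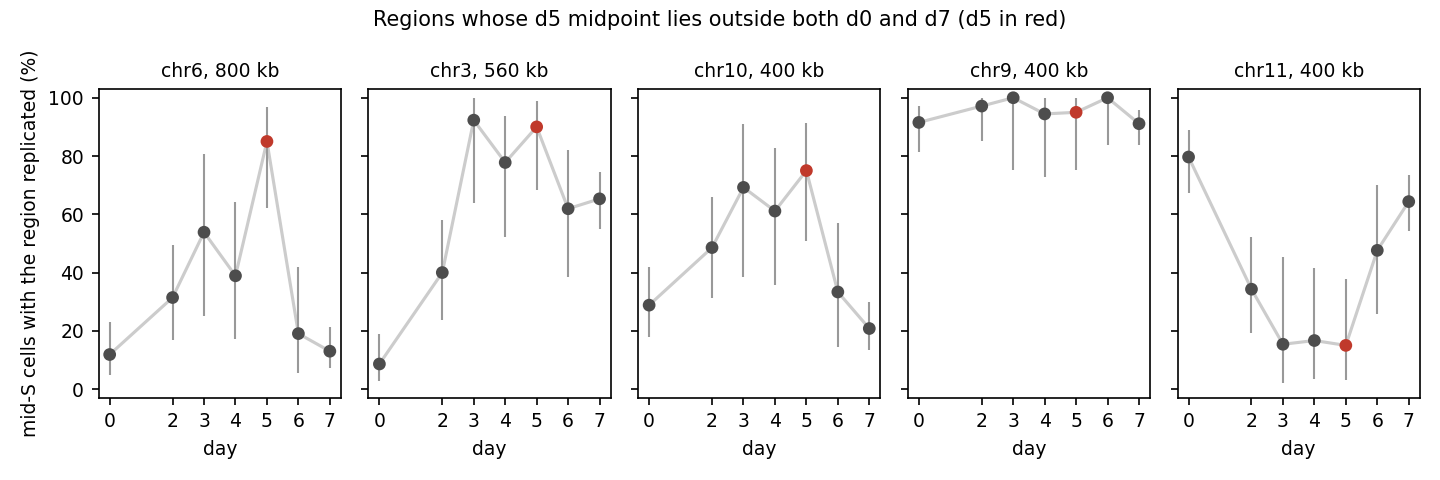
Percentage of mid-S cells (scores of 40 to 70%) in which more than 50% of the called bins of a region were replicated, by day, for the 5 regions whose d5 midpoint lay 20 points or more outside both d0 and d7. Bars are exact 95% intervals for counting error; d5 is in red, at 85% for chromosome 6, 90% for chromosome 3, 75% for chromosome 10, 95% for chromosome 9 and 15% for chromosome 11.

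How far the d0-to-d7 change had gone at d5 was measured on the 3853 bins whose midpoints differed by 20 points or more between d0 and d7, of which 1913 became earlier and 1940 later. At d5 the bins that became earlier had covered a median of 60% of their change (middle 50% of bins, 36.9 to 87.3%), and the bins that became later 65.4% (42.1 to 90.5%). At d4 the medians were 48.1 and 47.5%, and at d6 94 and 87.9%. More than 80% of the change was reached at d5 by 593 of the earlier-going bins (31%) and 679 of the later-going bins (35%). Less than 20% was reached by 11.4 and 9.69%. These bins share their d0 and d7 cells, and bins chosen for a large difference tend to have it overstated at both ends.

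Single cells were placed on the same change. For a cell, the share of earlier-going bins replicated minus the share of later-going bins replicated was set between the value fitted for d0 (place 0) and for d7 (place 1) at the score of that cell. The bins had been chosen on d0 and d7 cells, not on d5 cells. All 50 d5 cells with scores of 5 to 95% could be placed, that is, the 2 ends lay at least 0.2 apart at their score. Their median place was 0.717. The medians of the other groups were -0.012 for d0, 0.232 for d2, 0.183 for d3, 0.490 for d4, 0.955 for d6 and 1.06 for d7, and 0.630 for EpiSCs, so the d5 cells stood between d4 and d6 as their label has it.

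With all fitted d0 and d7 cells as ends, the d5 cells fell into 2 sets that did not touch. In 42 cells the place was 0.582 to 1.06, with a median of 0.743, and the medians for earlier-going (0.742) and later-going bins (0.745) were close. Within a cell these 2 could differ, with ranges of 0.474 to 1.25 for earlier-going and 0.367 to 0.9497 for later-going bins. In 8 cells it was 0.0257 to 0.317. No d5 cell lay between 0.317 and 0.582. With only present-series d0 and d7 cells as ends, 9 d5 cells lay below 0.5, and with only previous-series cells 12 did. Where the d5 cells divide thus depended on the ends used. The 42 included the 2 cells that do not follow the d5 order, at 0.768 and 0.777. The 8 cells were 16% of the 50 (7.17 to 29.1%), and 4 of the 20 mid-S cells (20%, 5.73 to 43.7%) were among them. At d7, 5.88% of the placed cells also lay below 0.5, at d6 3 of 52 and in EpiSCs 4 of 61, whereas 22 of 42 d4 cells and 98 of 100 d2 cells did.

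**Figure D5:**
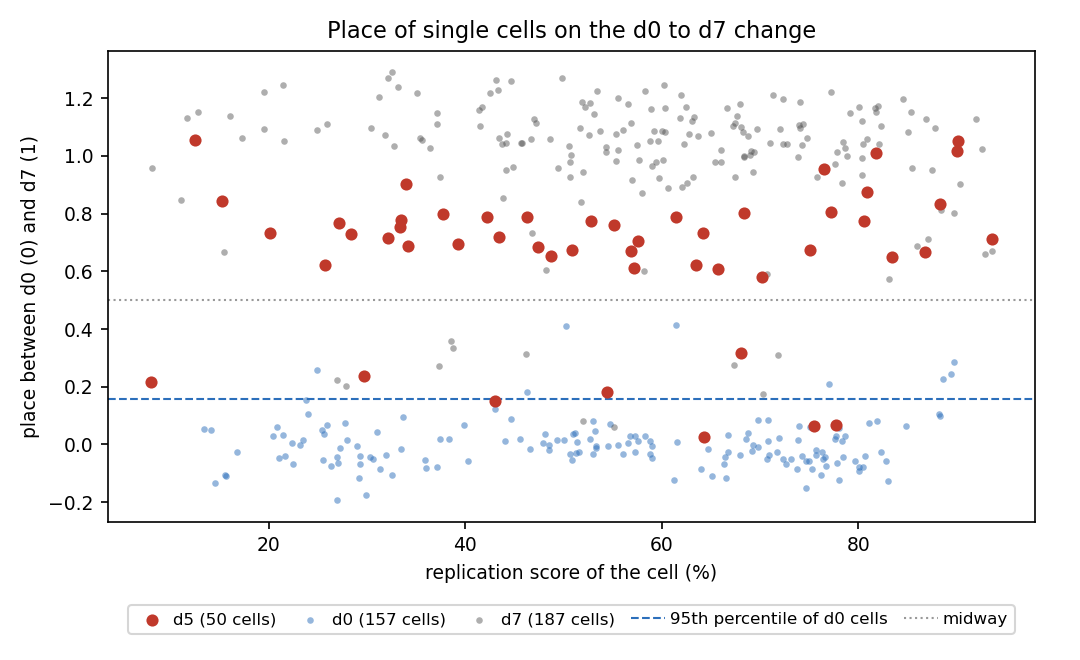
Place of each cell between d0 (0) and d7 (1) on the vertical axis against its replication score in %, for the 50 placed d5 cells (red) and the placed cells of d7 (grey) and d0 (blue). The dashed line is the 95th percentile of d0 cells (0.159) and the dotted line is midway; 8 d5 cells lie at 0.317 or lower and 42 at 0.582 or higher.

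Of the 8, 4 lay at or below 0.159, the 95th percentile of d0 cells, and are called ESC-like here. They were 8% of the placed d5 cells (2.22 to 19.2%). Cell 7 of the 45perS gate (score 64.2%) had the lowest place, 0.0257. Cell 9 and cell 6 of the 65perS gate (scores 75.5 and 77.7%) followed at 0.0625 and 0.0677, and cell 11 of the 35perS gate (43%) had 0.151. Of the other days, 24 of 100 d2 cells, 10 of 33 d3 cells, 1 of 42 d4 cells, 2 of 52 d6 cells and 2 d7 cells (1.07%) were ESC-like by the same limit. No EpiSC was, of 61, with an upper bound of 5.87%.

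The other 4 of the 8 cells lay above the limit. Cell 7 of the 55perS gate had a place of 0.181 (score 54.4%), cell 12 of the 35perS gate 0.238 (29.7%) and cell 5 of the 75perS gate 0.317 (68.1%). Cell 2 of the 25perS gate, at 0.217, had a score of 7.99%, and at this score the 2 ends were only 0.203 apart, so its place is the least certain. The 8 cells came from all 6 gates, and 6 of them had scores from 43 to 77.7%.

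The low place was found on most chromosomes of these cells. It was measured only on the bins that change from d0 to d7. The cells were chosen for a low place over those bins, so low values on single chromosomes largely follow from that choice. Single chromosomes still reached 0.789 in cell 12 of the 35perS gate and 0.718 in cell 5 of the 75perS gate. Placed chromosome by chromosome, 7 of the 8 cells lay below 0.5 on 16 to 19 of 19 chromosomes, and cell 2 of the 25perS gate on 11 of the 11 that could be placed. In the other 42 cells the median was 2 chromosomes and the highest 8. Order values of the 8 cells were 0.875 to 0.953, all below the median of 0.954 over the 50 fitted cells. They thus followed the order of the other d5 cells, but less closely than the median cell. Their called bins numbered 29605 to 29785, within the range of the other cells. By the likelihood of all calls of a cell under the profile of each other group, 6 of the 8 were closest to d0, 1 to d2 and 1 to d4. The cell closest to d2 was an ESC-like one, cell 11 of the 35perS gate, with d0 second. Cell 7 of the 55perS gate, cell 12 of the 35perS gate and cell 5 of the 75perS gate were closest to d0 but lay above the ESC-like limit. Of the 42 others, 34 were closest to d7, 7 to d4 and 1 to d6. The 34 included the 2 cells that do not follow the d5 order. Profiles of d0 and d7 rest on more cells than those of other days, which can favour them.

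A mark in the authors' deposited sample table picked out the same cells. It had been set for 6 d5 cells, all of them among the 8, including all 4 ESC-like cells, and for 0 of the other 42. The 2 unmarked cells were cell 2 of the 25perS gate and cell 12 of the 35perS gate. Its column is headed as a filter on scores, which its content does not match, so how it was set is not known and it is not taken as an independent measure.

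The regions with the largest d0-to-d7 change show what an ESC-like profile looks like at d5. On chromosome 7 from 48320001 to 51120000, which is copied early at d0 and late at d7, all 4 low-placed mid-S cells and 0 of the other 16 had it replicated, against 59 of 59 at d0. The region of chromosome 13 from 61280001 to 62880000 was copied in 4 of 4 and 1 of 16, and that of chromosome 4 from 146480001 to 147200000 in 4 of 4 and 3 of 16. Chromosome 13 from 64800001 to 68560000 was copied in 2 of 4 and 2 of 16, and chromosome 2 from 176800001 to 178000000 in 2 of 4 and 1 of 16. Chromosome 4 from 144240001 to 145520000 separated the cells least, with 4 of 4 and 10 of 16. Its midpoint was 45.1% at d5, 76.6% at d7 and 13.8% at d0, about midway between the ends.

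Regions that become earlier gave the mirror image. Chromosome 14 from 22960001 to 24400000 was copied in 1 of 4 low-placed mid-S cells and 15 of the other 16, against 4 of 59 at d0. Chromosome 18 from 54080001 to 56240000 and chromosome 2 from 147360001 to 148240000 both had 1 of 4 and 14 of 16. Chromosome 15 from 90480001 to 91360000 (1 of 4 and 9 of 16) and chromosome 7 from 76640001 to 78880000 (1 of 4 and 7 of 16) had moved in fewer of the other cells. On chromosome 13 from 78160001 to 79680000, 0 of 4 and 1 of 16 had copied it, against 80.2% at d7, so this region was late in nearly all d5 cells. In the 1 of 4 cases the cell was cell 5 of the 75perS gate, which had copied 5 of these 6 regions, while the other 3 low-placed mid-S cells had copied 0 of 6. The ESC-like cells above the mid-S range, cell 9 and cell 6 of the 65perS gate at 75.5 and 77.7%, had copied 4 and 3 of the 6. These cells were placed by bins that include these regions, so the counts describe the sets and do not test them.

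The 8 cells also changed how varied d5 looked. Pairs of similar score agreed in a median of 85.3% of bins when both cells were among the 8 (2 pairs), 82.4% when 1 was (37 pairs) and 86.4% when neither was (81 pairs). In the bins that change from d0 to d7 the medians were 81.5% with both, 70.8% with 1 and 81.03% with neither, and in all other bins 85.9, 84.2 and 87.3%. The mean span of the changing bins was 18.4 points over all d5 cells and 15.9 points without the 8, while that of other bins was 13.7 and 13.6 points. The 8 cells were chosen by their calls in the changing bins. Lower agreement of mixed pairs and narrower spans without the 8 are built into that choice there, so these values are a description. Of the widest windows named above, the one on chromosome 13 was copied in 4 of 4 low-placed and 1 of 16 other mid-S cells, and the one on chromosome 18 in 0 of 4 and 13 of 16. Those on chromosomes 12 and 9 separated the mid-S cells less, with 0 of 4 and 3 of 16, and 0 of 4 and 5 of 16. Over all placed d5 cells, the chromosome 12 window was copied in 1 of 8 low-placed and 17 of 42 other cells. The chromosome 9 window was copied in 0 of 8 and 19 of 42. For the chromosome 13 and 18 windows these counts were 7 of 8 and 11 of 42, and 0 of 8 and 29 of 42. Scores were not matched between the 2 sets.

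Without the 8 cells, the d5 profile lay farther from d0. It then had 1704 bins earlier and 1492 later than d0, and 667 earlier and 402 later than d7. The earlier-going bins had covered a median of 70.7% of their d0-to-d7 change and the later-going bins 73.9%. The 8 cells were chosen for lying close to d0 in these bins. A larger distance from d0 without them follows from that choice, so these values describe the shift and test nothing. Bins outside both d0 and d7 were 0.694% earlier and 0.209% later, in 8 and 2 regions, against 0.435 and 0.121% in 4 regions and 1 with all cells. The chromosome 3 gain against d0 had a d5 midpoint of 20.5% without the 8 cells and 29.3% with all cells.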

How the data were processed

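The DNA of each sorted cell was amplified (SeqPlex) and read once over 80 bp, as the labels' protocols describe. The tools that the submitters' processing notes list are Picard, cutadapt and BWA 0.7.10-r789, and the build is mm9; their settings are not given in the sources used here. The authors deposited, per the file headers, calls per 80 kb bin, coded 1 (replicated), -1 (not replicated) and 0 (no data), after correction with 1 of 14 merged G1 controls, and the replication score as a fraction; recomputed here from the calls in percent, it differed by at most 5.00e-08 points. The authors' smoothing and thresholds bound the resolution of every value. Read depth was not used here.

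Groups were taken from the titles. A logistic curve of call on score, with 1% of calls taken as wrong, was fitted by grid search per bin over cells with scores of 5 to 95%, for bins called in at least 50% of them. Bins with no data inside a run were bridged where both sides agreed. Midpoints of 0 and 100% are the ends of the grid. A region was taken as copied in a cell when over 50% of the bins called in it were replicated. Positions count from 1.

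Regions named were the 6 earliest and 6 latest 800 kb windows (10 bins, 8 or more with a midpoint, adjacent ones joined), the 4 widest and 4 narrowest in span with midpoints of 30 to 70%, and the regions with the largest mean midpoint difference, 6 in each direction for d5 against d0 and for d0 to d7 and 4 for d5 against d7. Cells were named when ESC-like or lowest or highest in score or order value; others were named after their values were seen. Members, lists and rules were chosen with earlier results of these data known, and the cells that chose a region also gave its values. No gene or sequence was placed on a bin, since the reference tables used here are of a later build than mm9.

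Among the deposited marks, the column headed as the interquartile-range filter marked all 105 S-phase cells with scores outside 5 to 95% and no other cell, while the column headed as the score filter marked 19 of these and 48 others, so the 2 headings do not match what their columns hold; the second column is the mark used here. The fits were tested on simulated data. Python 3.11.15, numpy 2.4.6, pandas 2.3.3, scipy 1.17.1 and matplotlib 3.10.9 were used.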

Additional observations from a re-analysis of the deposited data

How the results depend on the processing

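The early and late counts, spans, pair agreement, run lengths, comparisons with d0, d7, d4 and d6, and placement were repeated under other settings, and 17 of these values moved by over 1.5 times (counts) or by 1 SD or more. With a threshold of 30 points, 0.970% of bins were earlier and 1.36% later at d5 than at d0, 0.387 and 0.135% than at d7, 0.114 and 0.266% than at d4, and 0.289 and 0.413% than at d6. With the share of mid-S cells and a difference of 0.3 in place of midpoints, 6.15% of bins were later than at d0, 4.67% later than at d7, 3.76% earlier than at d4, and 3.83% earlier and 3.77% later than at d6. The other directions then held 1307 bins earlier than d0, 879 earlier than d7 and 691 later than d4, so that the larger direction changed against d7, d4 and d6, and an even split against d0 became one with more later bins. With only the 31 present-series d0 cells, 6.68% were later than at d0. The number of ESC-like cells was 2 over bins that differ by 30 points, and 8 with either the midway value or the highest d0 cell as the limit; the cause of these shifts was not tested. Leaving out the 4 ESC-like cells, the 8 low-placed cells, the 6 marked cells or the 2 cells that do not follow the order moved none of the repeated counts by over 1.5 times, but the bins outside both d0 and d7, repeated only without the 8, then made up 0.694% (earlier) and 0.209% (later), against 0.435 and 0.121%. These settings were chosen after seeing the data, apart from the first for d0 and d7 and the marked cells for the spread. The 8 low-placed cells stayed below midway in each other setting of the placement, or 7 of them with scores of 10 to 90%, and 9 cells in all did with present-series ends and 12 with previous-series ends. The median place of the cells not below midway was 0.775 with present-series ends and 0.638 with previous-series ends, against 0.743 with all. Comparing cells with a common G1 control was not run, since d5 shares its control with no other day. No paired analysis was possible because no test was made between groups.

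With 1 sample a day, 20 mid-S cells and 50 fitted cells, a share of cells carries wide counting error, and a difference between days includes any difference between cultures, sorts and G1 controls. Midpoints near 0 or 100% rest on few cells. Neighbouring bins depend on each other, so counts of bins exceed the number of independent events.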

Other observations

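The ends of the autosomes differed at d5. The last 5 Mb with calls had a median midpoint of 34% over 1193 bins and lay under 50% on 15 of 19 chromosomes, with chromosome 11 the earliest (10.0%) and chromosome 18 the latest (81.5%). The first 5 Mb, next to the centromere in mouse, had a median of 54.25% over 1164 bins and lay under 50% on 7 of 19 chromosomes, from 9.00% on chromosome 19 to 100% on chromosome 14.

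The 6 G1 cells titled day 5, whose other labels read day 6, were put in no group. Their scores were 0.0606, 0.513, 0.342, 0.00, 1.27 and 0.302%, with 29362 to 29806 called bins. Of the d5 cells sorted from S-phase gates, 6 had scores inside this range.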
